A study of Mus musculus with 12 samples.

Results

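The effect of a Ptprk knockout was examined in hepatocytes of high lipid content, by comparing 3 knockout (KO) with 3 wild-type (WT) high-fat libraries out of 12 RNA-seq libraries in all. The members of the comparison were the genes that reached 10 in 3 or more of the 12 libraries, which gave 16563 of the 52636 genes in the deposited table. Viable hepatocytes had been recovered from fatty livers of 6 mice and separated by a Percoll gradient and centrifugation into 2 fractions, of low and of high fat content, and polyA RNA was sequenced. Both fractions of each mouse were sequenced, so that the 6 low-fat libraries come from the same animals as the 6 high-fat ones. All mice had steatotic livers, and the labels "WT" and "PTPRK KO" are the only genotype information. The strain, age, diet, the knockout allele and the cells in which it acts are not given in the sources used here.

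Ptprk encodes a transmembrane protein tyrosine phosphatase whose extracellular part can bind the same protein on a neighbouring cell. Its phosphatase domains face the cytoplasm and can remove phosphate from tyrosines of junction proteins and of growth factor receptors, among them the epidermal growth factor receptor. In a fatty hepatocyte, lipid is made from sugar, stored in droplets, exported in lipoproteins or oxidised in mitochondria and peroxisomes, and the genes of these routes are controlled by factors such as Srebf1, Ppara and Pparg.

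Values are reads per 20 M reads, rescaled between libraries, and replicates are numbered 1 to 3 as in the labels. Estimated depth lay between 15.1 and 22.99 M reads (M, mega) in the 6 high-fat libraries, the lowest being KO replicate 3. The hepatocyte markers Alb, Cps1 and Apoa1 were among the abundant transcripts of every library, and the 13 hepatocyte markers summed to between 836327 and 945296 reads per 20 M. Pearson correlations of log2 levels lay between 0.967 and 0.988 for libraries of the same group and between 0.967 and 0.990 for libraries of different groups. Markers of Kupffer cells, the resident macrophages of the liver, set replicate 1 of both genotypes apart, at a summed level of 13600 in WT and 11670 in KO, against 2499 to 2875 in the other 4 high-fat libraries. Some values below are therefore also given without both of these libraries.

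Ptprk itself, a protein-coding gene on chromosome 10, was lower in every KO library. Its level was 2078, 2566 and 2438 reads per 20 M in WT replicates 1 to 3, and 1132, 1182 and 1226 in KO replicates 1 to 3. The groups did not overlap, and the KO mean was 49.99% of the WT mean. Ptprk fell by 0.99 on the log2 scale, with a standard error of 0.093 and an adjusted p of 0.00501 in limma. A two-sided exact permutation test over the 6 libraries gave p = 0.1, the smallest value that 3 against 3 can give. The call uses the spread of all 12 libraries, although both fractions of a mouse are not independent of each other. With the spread of the 6 high-fat libraries alone, the log2 difference was the same and the limma adjusted p was 0.402. Without WT replicate 3 or without KO replicate 2 the limma adjusted p was 0.0520 and 0.0528. The deleted part of the gene is not given in the sources used here, so that the remaining reads cannot be assigned to a part of the transcript.

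**Figure D1:**
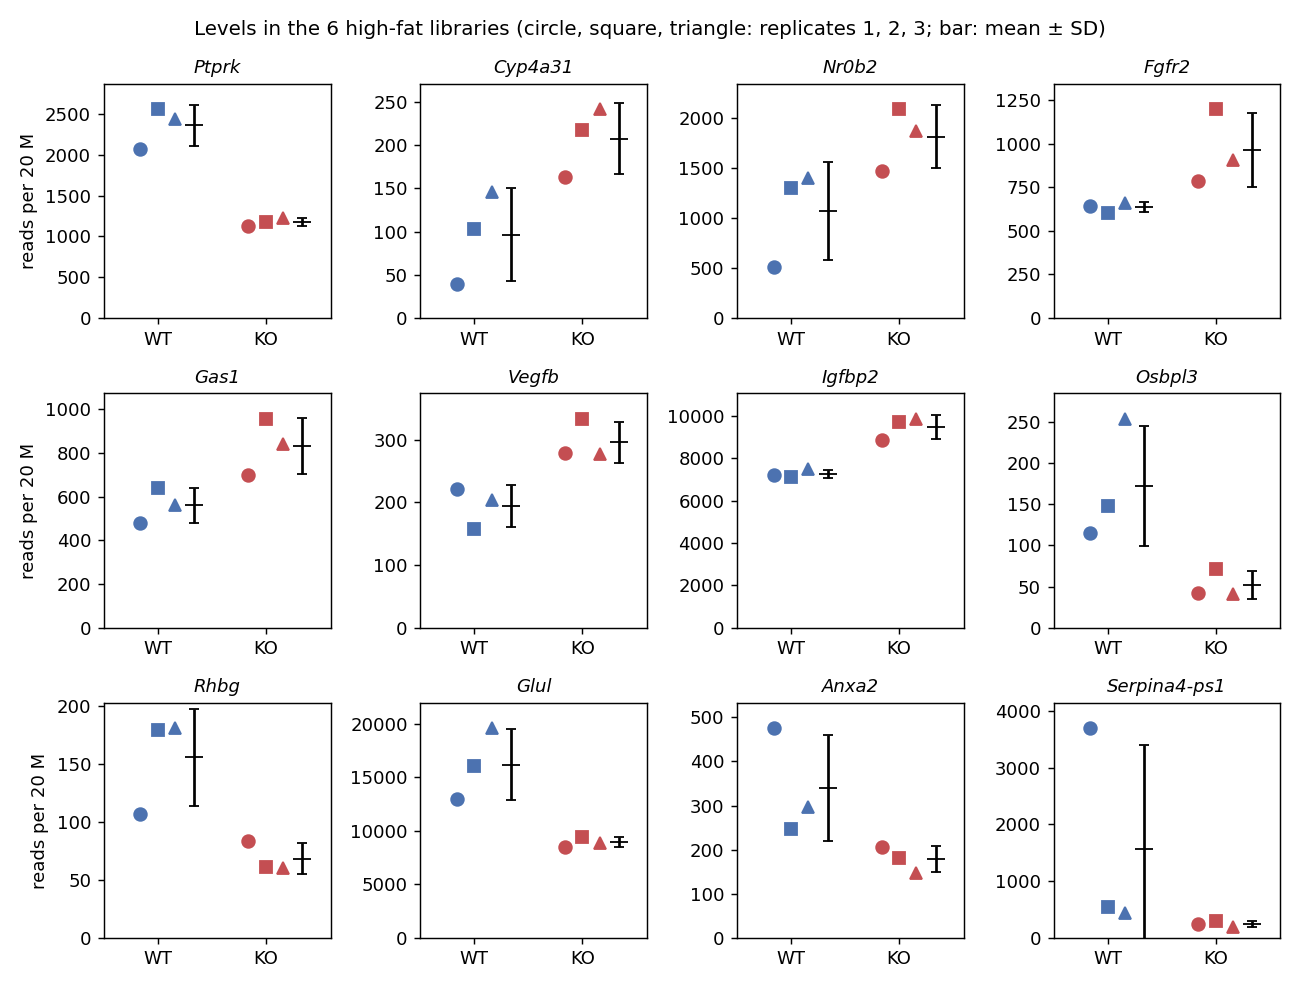
Levels of Ptprk and 11 ranked genes in the 6 high-fat libraries, in reads per 20 M on linear axes that start at 0. Circles, squares and triangles are replicates 1, 2 and 3 of WT (blue) and KO (red), and the black bars are the mean and SD of each group (for Serpina4-ps1 the WT bar runs past the axis). No KO symbol overlaps the WT range in these panels, and replicate 1 of WT stands far above the other libraries for Serpina4-ps1.

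Ptprk was the only gene called across the transcriptome. At an adjusted p under 0.05 in limma, 1 of 16563 genes was called (0.00604%), and the next smallest adjusted p was 0.679. Without adjustment, 136 genes were higher (0.821%) and 198 lower (1.2%) at p under 0.05, while 5% of the genes tested would be 828 genes. Every KO library lay above every WT library for 352 genes (2.13%) and below for 508 genes (3.07%). Among the 10652 genes that averaged 100 reads per 20 M or more over the high-fat libraries, 46 were at least 1.5-fold higher (0.432%) and 115 at least 1.5-fold lower (1.08%), and 6 and 18 passed 2-fold. For 91.7% of these genes the 95% interval of the fold change lay within 2-fold in either direction. Large differences were thus measurable for most genes and small ones were not. The intervals treat both fractions of a mouse as independent, so they may be too narrow.

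Abundant and scarce transcripts leaned in opposite directions. Of all genes tested, 46.6% had a log2 fold change above 0, and the median was -0.014. Of the 3583 genes with a mean of at least 1000, 67.3% lay above 0, with a median of 0.044. The median was -0.20 for the 2437 genes with a mean under 20 and -0.12 for the 3474 genes between 20 and 100. By gene type, the median was -0.30 over 86 sense-intronic RNAs, of which 74 lay below 0, and -0.096 over 474 long intergenic RNAs. Protein-coding genes had a median of -0.0021. The sense-intronic RNAs were highest in WT replicate 2, at 0.91 above the mean of the 6 libraries on the log2 scale, against -0.45 to 0.23 in the other 5. The part of that library in the lean of scarce transcripts was not tested.

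**Figure D2:**
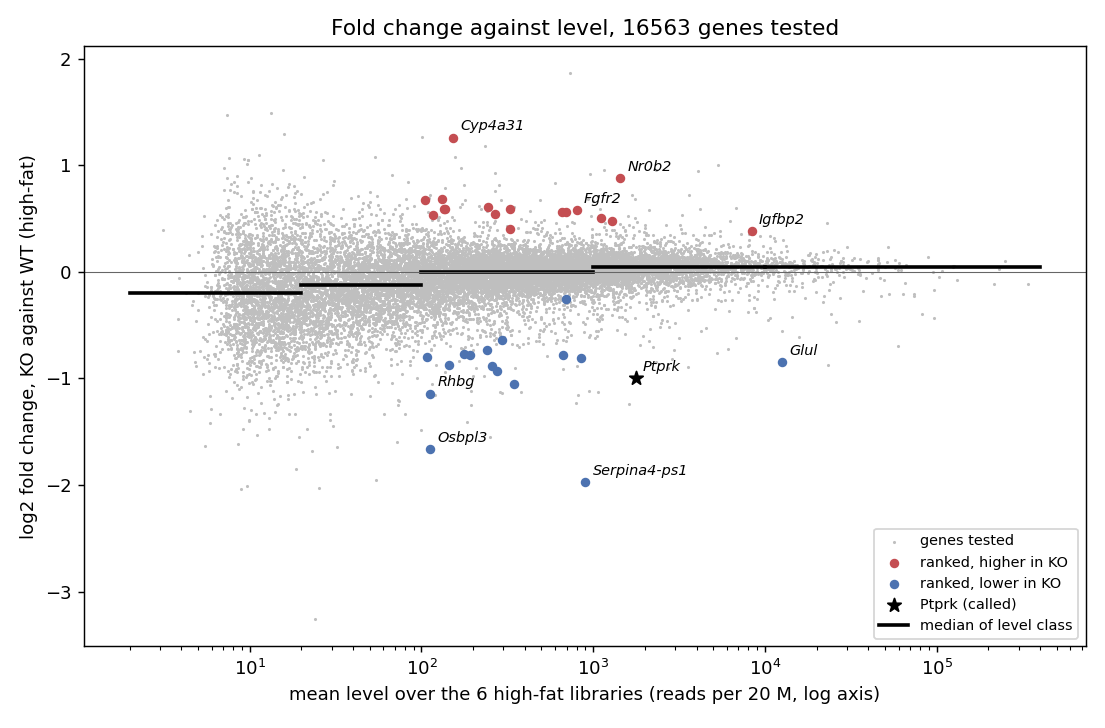
The log2 fold change of KO against WT (vertical axis) for each gene tested against its mean level over the 6 high-fat libraries (horizontal axis, log scale, reads per 20 M), with the median of each level class as a black line. Ptprk (star) is the only called gene, ranked genes are in red and blue, and the class medians climb from -0.20 below 20 reads to 0.044 to 0.045 above 1000.

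Genes were ranked by fold change among those with a plain symbol, a mean of at least 100 and no overlap between the groups, which held for 238 genes on the higher and 203 on the lower side. The 15 at each end and the 5 with the smallest p on each side, 17 higher and 16 lower genes besides Ptprk, are described here by their values. None passed adjustment, each having a limma adjusted p of 1.0. Their sign held in all 14 alternative settings. For the settings that leave out libraries this was fixed in advance, since groups that do not overlap cannot change sign.

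On the higher side, the top gene was Cyp4a31, a cytochrome P450 of the family that hydroxylates fatty acids and is switched on by Ppara. Its level was 39.2, 104 and 146 in WT and 163, 218 and 242 in KO, a log2 fold change of 1.26 with a standard error of 0.42. Reads of close relatives in the Cyp4a cluster may be shared with it. Without both replicate 1 libraries the log2 fold change of Cyp4a31 was 0.89, since WT replicate 1 held the lowest level.

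Nr0b2, the nuclear receptor SHP that restrains bile acid synthesis, stood at 508, 1304 and 1399 in WT and at 1473, 2096 and 1872 in KO, a log2 fold change of 0.88 with a standard error of 0.41. WT replicate 1 lay far below the other 5 libraries, and without both replicate 1 libraries the value for Nr0b2 was 0.55. Cyp7a1, the rate-limiting enzyme of bile acid synthesis from cholesterol, lay at 4235, 1869 and 4587 in WT and at 1358, 1358 and 3010 in KO. The groups overlapped for Cyp7a1, whose log2 fold change was -0.90 with a standard error of 0.53, and -0.53 without both replicate 1 libraries. Nr0b2 and Cyp7a1 were the highest and the lowest of 23 genes of bile acid synthesis and transport. The median of these 23 genes was -0.013, with 9 above 0 and 14 below, and it ran from -0.067 to 0.061 over the alternatives. A link between Nr0b2 and Cyp7a1 was not tested.

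Vegfb, a member of the vascular endothelial growth factor family, measured 222, 157 and 204 in WT and 278, 334 and 277 in KO, with a log2 fold change of 0.61 and a standard error of 0.14. It had the smallest p on the higher side among the ranked genes, 0.00103 before adjustment in limma. Fgfr2, a receptor of fibroblast growth factors, had levels of 643, 604 and 660 in WT and of 789, 1202 and 908 in KO, a log2 fold change of 0.58 with a standard error of 0.15. The annotated span of Fgfr2 in GENCODE M21 overlaps 69 other genes, whose reads could be counted with it. Gas1, a lipid-anchored surface protein that acts as a co-receptor in hedgehog signalling, reached 481, 641 and 560 in WT and 698, 957 and 841 in KO, a log2 fold change of 0.57 with a standard error of 0.14. Igfbp2, a secreted binding protein for insulin-like growth factors with the highest read level of the ranked genes on this side, had 7221, 7118 and 7484 in WT and 8843, 9699 and 9878 in KO, a log2 fold change of 0.38 with a standard error of 0.11. For Igfbp2 and Fgfr2 the WT libraries lay close together, and the gap to the lowest KO library exceeded the whole WT range.

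Bik and Bbc3, which encode pro-apoptotic proteins of the BH3-only class, had log2 fold changes of 0.69 and 0.59. Without both replicate 1 libraries these values were 0.36 and 0.84. Tgif1, a homeobox repressor of TGF-beta and retinoid signalling, lay at 307, 240 and 235 in WT and at 419, 344 and 412 in KO, a log2 fold change of 0.59 with a standard error of 0.18. Fn3k, the kinase that starts the removal of sugar adducts from proteins, had 269, 280 and 295 in WT and 396, 352 and 369 in KO, a log2 fold change of 0.40. Emp2 (0.67), Qpct (0.59), Atoh8 (0.56), Csrp3 (0.54), Klf16 (0.53), B4galt5 (0.51) and Plekhg3 (0.48) completed the higher side on the log2 scale, and Csrp3 was at 0.31 without both replicate 1 libraries.

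On the lower side, 3 of the ranked genes are known from the hepatocytes that surround the central vein, where ammonia is captured into glutamine. Glul, which encodes glutamine synthetase and lies on chromosome 1, was at 12990, 16014 and 19565 in WT and at 8488, 9420 and 8805 in KO. The groups did not overlap, with a log2 fold change of -0.84, a standard error of 0.33 and an unadjusted p of 0.0274 in limma. Rhbg, an ammonium transporter, had 107, 179 and 181 in WT and 83.7, 60.9 and 60.3 in KO, a log2 fold change of -1.14 with a standard error of 0.42. Slc22a3, an organic cation transporter on chromosome 17, had 102, 171 and 141 in WT and 72.6, 72.7 and 86.3 in KO, a log2 fold change of -0.80 with a standard error of 0.29. Teddm2 and Mir8114, at -0.81 and -0.78, also ranked here, but both overlap Glul in the annotation, so that their reads and those of Glul cannot be told apart. Reads of Rhbg may be shared with Gm38392 on the same strand. Slc22a3 overlaps Plg and AC132106.1 on the other strand, and as strandedness is not given, their reads may be shared too.

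The pericentral expression of such genes is known to depend on Wnt signalling through TCF factors, so the bases before the start of both genes with an entry in the RefSeq promoter table are shown. They are the 250 bases upstream of the start in GRCm38.p6, written 5′ to 3′ along the gene's strand, with matches to the TCF core letters CTTTGA, searched with their reverse complement TCAAAG, in capitals. Slc22a3 is at chr17:12507705-12507954 on the minus strand and Glul at chr1:153899679-153899928 on the plus strand.
Slc22a3: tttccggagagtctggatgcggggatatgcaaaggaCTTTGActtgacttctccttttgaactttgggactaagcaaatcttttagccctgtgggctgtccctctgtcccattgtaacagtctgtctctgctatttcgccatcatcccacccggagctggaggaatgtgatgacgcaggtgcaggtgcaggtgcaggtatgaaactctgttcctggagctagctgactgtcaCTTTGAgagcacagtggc
Glul: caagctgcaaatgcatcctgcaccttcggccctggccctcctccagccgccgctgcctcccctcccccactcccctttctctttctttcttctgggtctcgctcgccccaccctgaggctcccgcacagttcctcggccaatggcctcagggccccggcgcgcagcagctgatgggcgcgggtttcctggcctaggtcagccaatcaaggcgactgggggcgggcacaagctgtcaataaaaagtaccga
The window of Slc22a3 held 2 matches and that of Glul held none. One of these motifs in either orientation was present in 4544 of the 32851 promoters of the table (13.8%), so that a match is a description only, and the absence of one says only that these letters are not in this window.

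The lowest value of the ranked genes belonged to Serpina4-ps1, a serpin pseudogene, with 3695, 544 and 434 in WT and 246, 297 and 194 in KO. Its log2 fold change of -1.97 (standard error 0.83) rested largely on WT replicate 1, and without both replicate 1 libraries it was -1.01. Osbpl3, an oxysterol-binding protein family member, lay at 115, 148 and 254 in WT and at 41.9, 71.7 and 41.6 in KO, a log2 fold change of -1.66 with a standard error of 0.45. Anxa2, a calcium-dependent membrane-binding annexin, lay at 475, 248 and 297 in WT and at 206, 182 and 147 in KO, a log2 fold change of -0.88 with a standard error of 0.25. Both Osbpl3 and Anxa2 kept values of -0.61 or lower in every setting tried. 

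Pik3c2g, a class II phosphoinositide 3-kinase, had 327, 450 and 307 in WT and 265, 179 and 251 in KO, a log2 fold change of -0.64. Phkb, the beta subunit of phosphorylase kinase in glycogen breakdown, differed by less but with tight groups, at 763, 748 and 761 in WT and 622, 616 and 662 in KO, a log2 fold change of -0.26 with a standard error of 0.070. Jam2, a junctional adhesion molecule, was at -0.74 on the log2 scale, and Fam129b, Fam124a, Phldb1, Aatk and Bmyc lay between -1.05 and -0.77. Jam2 is also made by endothelial cells, whose markers are described below.

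Gene groups were described over 63 lists, and Ptprk was the only called member of any of them. The values over all genes tested, a median of -0.014 with 46.6% above 0, stand beside each list that follows. Fatty acid oxidation and other Ppara targets showed the most even lean of the metabolic lists. Of 34 tested members 33 lay above 0 and the list median was 0.19, against -0.014 over all genes and 0.044 over genes with a mean of at least 1000. The mitochondrial entry enzymes Cpt1a and Cpt2 had log2 fold changes of 0.18 and 0.20, and the peroxisomal enzymes Ehhadh and Decr2 had 0.32 and 0.27. Ehhadh lay at 9422, 9483 and 11196 in WT and at 10689, 14103 and 12917 in KO, so that its groups overlapped. Those of every other member except Cyp4a31 overlapped too, where 2.13% of all genes were higher and 3.07% lower in every KO library. Averaged over the list on the log2 scale, the libraries stood at -0.52, -0.13 and 0.22 in WT and at -0.13, 0.40 and 0.16 in KO relative to their common mean. The groups thus overlapped, with WT replicate 1 lowest. The list median stayed between 0.10 and 0.33 in all 14 alternative settings, lowest without WT replicate 1.

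**Figure D3:**
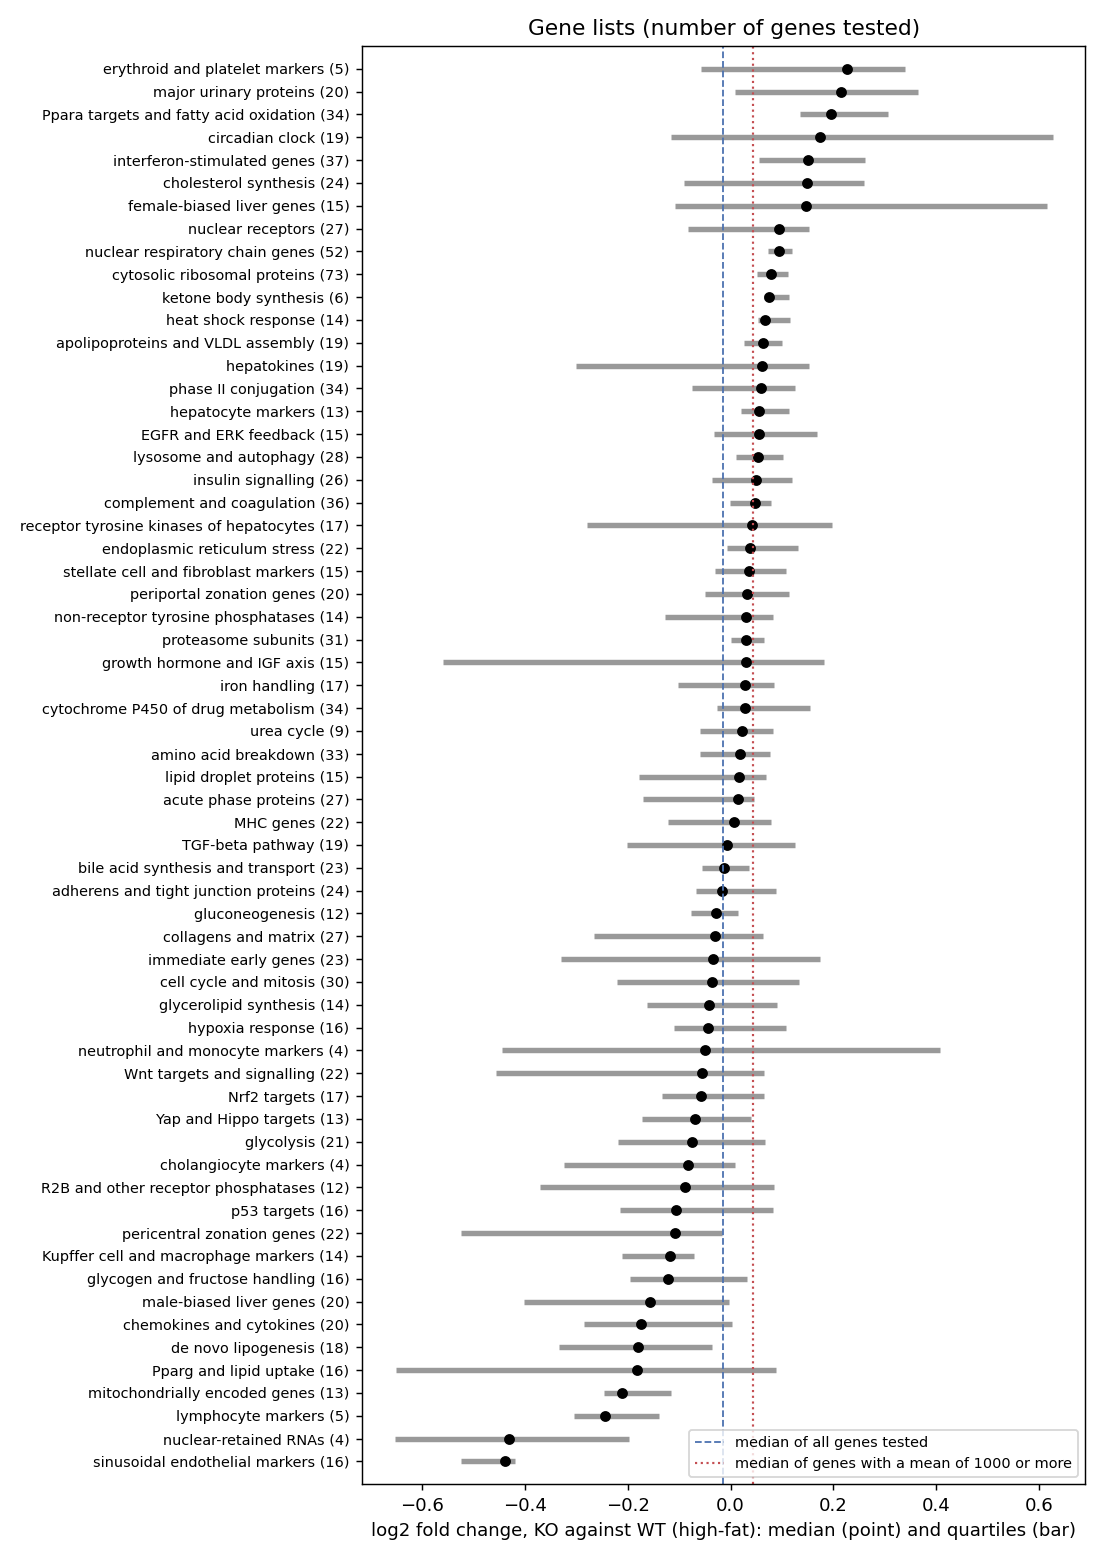
The median (point) and quartiles (bar) of the log2 fold change of KO against WT for each gene list with at least 3 tested genes, whose number stands in brackets. The dashed line is the median of all genes (-0.014) and the dotted line that of genes with a mean of at least 1000 (0.044), and sinusoidal endothelial markers and nuclear-retained RNAs lie farthest to the left.

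Genes of sterol synthesis had a median above 0, and genes of fatty acid synthesis had one whose sign depended on single libraries. In the cholesterol list 17 of 24 genes were above 0, with a median of 0.15. That median was 0.023 without KO replicate 3 and 0.28 without both replicate 1 libraries. Srebf2, the master regulator of the pathway, Hmgcs1 and Tm7sf2 were higher in every KO library, with log2 fold changes of 0.15, 0.14 and 0.28, beside 2.13% of all genes. Fdft1, which makes squalene, was at 0.47 with overlapping groups. For de novo lipogenesis 14 of 18 genes lay below 0, with a median of -0.18 and no member whose groups did not overlap. Without both replicate 1 libraries this median was 0.076, and without KO replicate 2 it also lay above 0. Fasn, the fatty acid synthase, had 35607, 43760 and 12421 in WT and 16895, 12837 and 33367 in KO, and its log2 fold change was -0.47 with a standard error of 0.60, and -0.17 without both replicate 1 libraries. The list averages were 0.40, 0.31 and -0.47 in WT and -0.15, -0.57 and 0.49 in KO, so that the spread within each genotype was larger than the difference between them.

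Glycolysis had 14 of 21 genes below 0, with a median of -0.076 and no member that separated the groups. Of all genes 2.13% were higher and 3.07% lower in every KO library. The median turned to above 0 without WT replicate 1, without KO replicate 2 and without both replicate 1 libraries (0.0018). Pklr, the liver pyruvate kinase, had 12944, 12640 and 11019 in WT and 8189, 7207 and 12535 in KO, a log2 fold change of -0.43 with a standard error of 0.23. KO replicate 3 lay within the WT range for Pklr. Tkfc, the triokinase of fructose breakdown, was lower in every KO library, the only 1 of 16 glycogen and fructose genes to separate the groups. It lay at 15246, 17745 and 16659 in WT against 13157, 10502 and 13566 in KO, a log2 fold change of -0.42 with a standard error of 0.20.

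Of 16 tested genes of Pparg and lipid uptake 9 lay below 0 and 7 above, with a median of -0.18, and no member separated the groups. That median lay above 0 without WT replicate 1, and was 0.098 without both replicate 1 libraries. Pparg itself was at -0.60, and at -0.27 without both replicate 1 libraries. Cd36, a fatty acid transporter and Pparg target, lay at 2462, 2247 and 2940 in WT and at 1282, 2305 and 1414 in KO, a log2 fold change of -0.65 with a standard error of 0.22. KO replicate 2 lay within the WT range for Cd36. Among droplet proteins Plin4 was at -0.88 and Cidec at -0.65, both with overlapping groups. Plin5 and Fitm1 were lower in every KO library at -0.19 and -0.54, beside 3.07% of all genes. Of the 15 droplet genes 9 lay above 0, the highest being Pnpla2 at 0.27 with overlapping groups. Plin2, a perilipin that coats droplets in hepatocytes, was at 0.03 with a standard error of 0.23. The median of the 15 droplet genes was 0.016, and it ran from -0.049 to 0.086 over the alternatives.

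Of 12 tested receptor phosphatases, Ptprk included, 7 lay below 0 and 5 above, with a median of -0.089. In this list 3 were lower and 1 higher in every KO library. Among the phosphatases related to Ptprk, the scarce Ptpru, also of the R2B class, lay at 78.4, 47.8 and 37.5 in WT and at 33.5, 33.4 and 20.8 in KO, a log2 fold change of -0.82 with a standard error of 0.32. The third detected member of that class, Ptprm, overlapped between groups at -0.32. Ptprj was higher in every KO library, at 2162, 2073 and 2168 in WT against 2455, 2361 and 2633 in KO, a log2 fold change of 0.22 with a standard error of 0.089. Of 17 hepatocyte receptor tyrosine kinases and co-receptors only Fgfr2 separated the groups, beside 2.13% of all genes higher and 3.07% lower in every KO library. Egfr, a reported substrate of Ptprk, lay at 12442, 19396 and 25950 in WT and at 10761, 10110 and 16151 in KO, a log2 fold change of -0.61 with a standard error of 0.33, and KO replicate 3 lay within the WT range. The 24 junction proteins had a median of -0.017, which ran from -0.053 to 0.029 over the alternatives, and the catenin genes Ctnnb1, Ctnna1 and Ctnnd1 lay between -0.021 and 0.069.

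Over the whole pericentral list 18 of 22 genes lay below 0, with a median of -0.11 that was -0.015 without KO replicate 1, and the 3 genes described above were the members that separated the groups, where 3.07% of all genes were lower in every KO library. Slc1a2, a glutamate transporter of the same cells, was at -0.73, Oat at -0.55, Axin2 at -0.50 and Tbx3 at -0.53, all with overlapping groups. Without both replicate 1 libraries Axin2 was at -1.03 and Tbx3 at -1.15, and without WT replicate 2 they were at -0.074 and -0.16. Abundant pericentral enzymes differed among themselves, with Cyp2e1 at 0.02 and Cyp1a2 at -0.02, while Glul, also abundant, was at -0.84. The median of 20 periportal genes was 0.033, and it ran from -0.059 to 0.18 over the alternatives. In the Wnt list 8 of 22 genes lay above 0, with a median of -0.055 that was 0.027 without WT replicate 2. The receptors Fzd5 and Fzd8 were at 0.47 and 0.46, with overlapping groups. Rspo3, a secreted amplifier of Wnt signalling made by central vein endothelium, was lower in every KO library. It lay at 81.3, 55.7 and 48.4 in WT and at 31.6, 31.4 and 31.2 in KO. Its log2 fold change was -0.90 with a standard error of 0.35, and it was named after its values had been seen. Rspo3 lies 855 kb from Ptprk on chromosome 10, among the neighbours described below. The part of that position in its value was not tested.

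Interferon-stimulated genes leaned higher, with 30 of 37 above 0 and a median of 0.15, which was 0.043 without WT replicate 3. Among those higher in every KO library were Ifit1, Ifit3b, Irf7 and Gbp6, with log2 fold changes of 0.33, 0.44, 0.25 and 0.34, and Cxcl10 was lower in every one at -0.21. Of all genes 2.13% were higher in every KO library, and the average of the interferon list overlapped between the groups. Clock genes had wide spreads. Of 19 tested 13 lay above 0 and 6 below, with a median of 0.17 that ran from 0.13 to 0.38 over the alternatives. Dbp, a clock output factor, had 73.6, 264 and 586 in WT and 215, 1684 and 1558 in KO, a log2 fold change of 1.86. Npas2, a transcription factor of the opposite phase, had 373, 298 and 101 in WT and 212, 26.5 and 99.8 in KO, at -1.40. The groups overlapped for both. Cry2, at 0.30, was the clock gene that separated the groups.

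Of 73 cytosolic ribosomal protein genes 70 lay above 0 with a median of 0.079, and of 52 nuclear genes of the respiratory chain 49 lay above 0 with a median of 0.094. The ribosomal median was -0.012 without WT replicate 2 and 0.19 without both replicate 1 libraries, and the respiratory chain median was 0.024 without KO replicate 3 and 0.17 without both replicate 1 libraries. None of these genes separated the groups, and 68 and 46 of them averaged 1000 reads or more, the class in which 67.3% of genes lay above 0. The 13 mitochondrially encoded genes had a median of -0.21, with WT replicate 2 highest at 0.99 above the common mean on the log2 scale, and without it the median was 0.17. The nuclear-retained RNAs Malat1, Neat1, Kcnq1ot1 and Gm26917 all lay below 0, with a median of -0.43 that was -0.14 without WT replicate 2. Neat1, at -0.22, ran from -1.07 to 0.48 over the alternatives. Malat1 had 101850, 82409 and 28222 in WT and 97254, 21319 and 26672 in KO, so that replicate 1 of both genotypes and WT replicate 2 were high. Whether these differences in RNA composition bear on the gene values above was not tested.

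**Figure D4:**
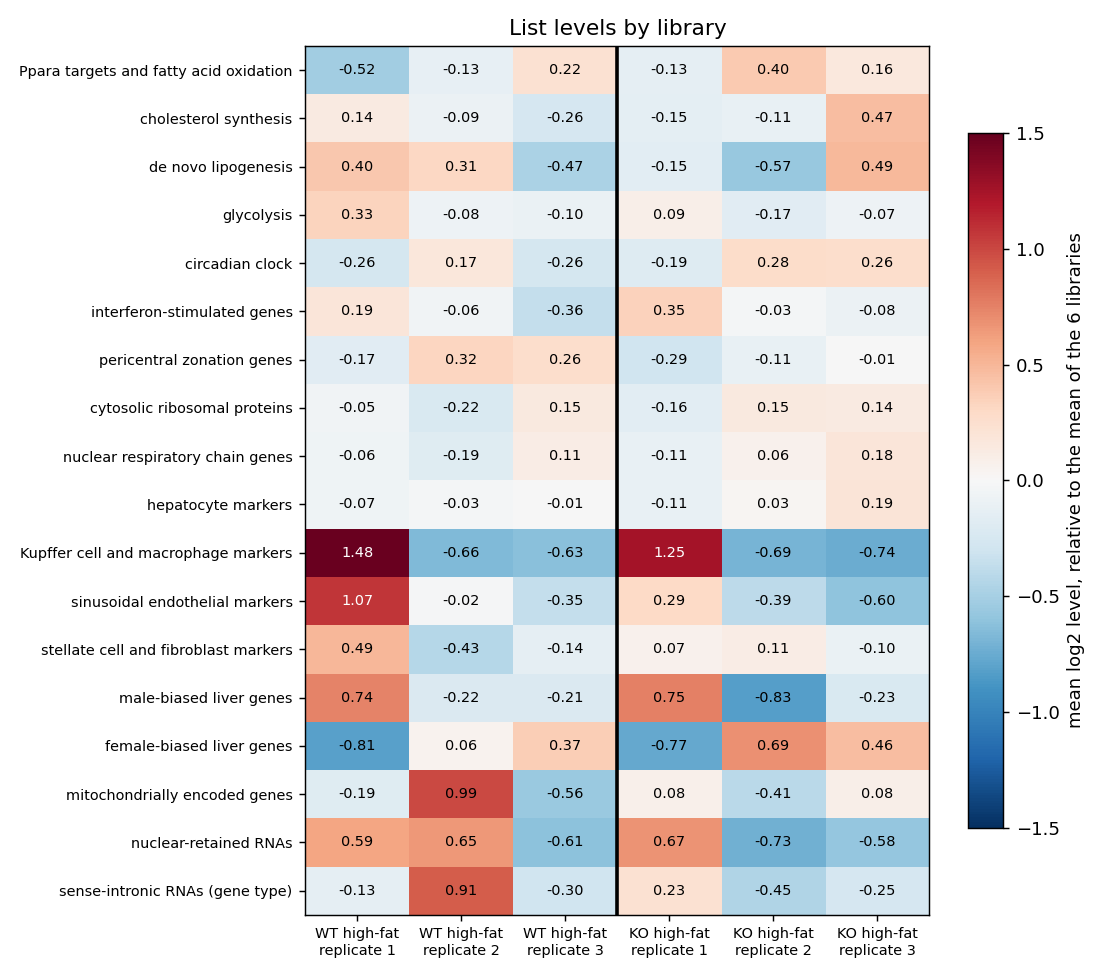
The mean log2 level of the genes of 17 lists and of the sense-intronic RNAs in each of the 6 high-fat libraries, relative to the mean of the 6 libraries (colour and printed value). Kupffer cell markers are high in replicate 1 of both genotypes (1.48 and 1.25), and mitochondrial and sense-intronic RNAs are high in WT replicate 2 (0.99 and 0.91).

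Markers of other liver cells were present in all 6 libraries at levels far under those of hepatocyte markers. All 16 sinusoidal endothelial markers lay below 0, with a median of -0.44, and their summed level was 24783, 12026 and 9334 in WT and 15511, 9132 and 7545 in KO. The groups overlapped for the sum and for each of the 16 genes, and WT replicate 1 was highest. Fewer cells of a type and less RNA per cell cannot be told apart in such bulk samples. Without WT replicate 1 alone the median was -0.039, and without both replicate 1 libraries it was -0.33. The part of endothelial RNA in the values of Jam2, Anxa2 and Rspo3 was not tested. Kupffer cell markers had a median of -0.12 over 14 genes and stellate cell markers 0.035 over 15 genes, and the signs of both depended on single libraries, with ranges of -0.79 to 0.59 and -0.15 to 0.33 over the alternatives. Of 63 lists only the cholangiocyte markers, with 4 of 10 genes tested, had averages that did not overlap between the genotypes, and Anxa2 was the member of that list that separated the groups.

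The neighbours of Ptprk on chromosome 10 were examined as a group of their own. Within 5 Mb of it in GENCODE M21, 37 of 182 annotated genes were tested, and their median log2 fold change was -0.023. Of these, 5 were lower and 0 higher in every KO library, beside 3.07% and 2.13% of all genes. Rspo3, described above, was among the 5, with a mean of 46.6 over the high-fat libraries. AC158592.1, Hddc2 and Gm7909, also among the 5, averaged only 13.2, 7.37 and 7.85. Scarce genes were more often lower in every KO library, at 4.72% of genes with a mean under 20 and 4.92% of those between 20 and 100. The lowest of the 37 was Themis, a gene known from T cell development and the nearest of them to Ptprk, at 71 kb. Themis lay at 93.7, 144 and 207 in WT and at 39.1, 72.7 and 41.6 in KO. Its log2 fold change was -1.48 with a standard error of 0.48. The 5 lymphocyte markers tested, out of 17, summed to 360, 152 and 49 in WT and 207, 74 and 104 in KO, and their part in the value of Themis was not tested. The highest was Lama2 at 0.31, with overlapping groups and a value of -0.13 without WT replicate 2.

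In the low-fat libraries of the same mice, Ptprk was again the only gene called, at 1 of 16563 genes (0.00604%). Its log2 fold change there was -1.13, and the KO mean was 45.7% of the WT mean. The test of the difference between fractions called 0 genes (0%), with 7 genes higher and 17 lower at an unadjusted p under 0.05 in limma. With a term for each mouse it also called 0, with 15 and 51 genes at that unadjusted threshold. For the ranked genes, low-fat log2 fold changes ran from 0.18 to 1.33 among those ranked higher and from -1.56 to -0.11 among those ranked lower, as for Cyp4a31 (1.33), Fgfr2 (0.62), Glul (-0.87) and Osbpl3 (-1.49). As both fractions come from the same 6 mice, these values are not independent support for the high-fat ones. A test that called no gene does not show that the effects were equal in both fractions.

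**Figure D5:**
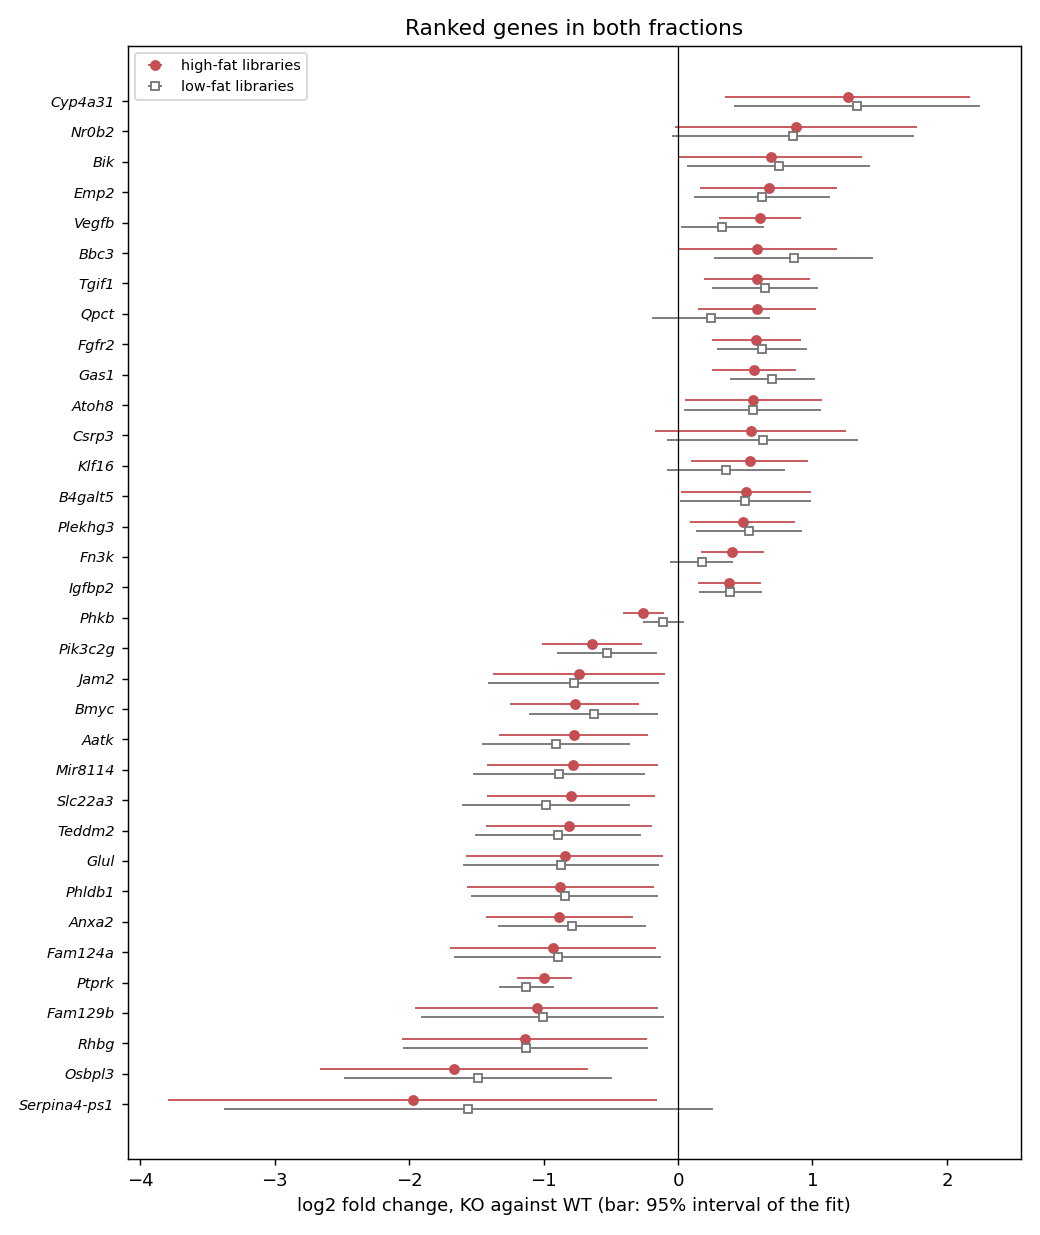
The log2 fold change of KO against WT for Ptprk and the 33 other ranked genes in the high-fat (red circles) and low-fat (grey squares) libraries, with bars for the 95% interval of the fit, which is unadjusted. The genes were ranked on the high-fat values, and the low-fat values come from the same mice.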

How the data were processed

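PolyA RNA of 12 liver cell libraries was sequenced, with 3 libraries in each of 4 groups of genotype and lipid fraction, and the 6 high-fat libraries are compared here. The deposited values are a score: the authors scaled the gene counts of each library to 20 M and rounded up to whole numbers, as read from the values. The genome build mm9 is named in the submitters' processing notes, and the aligner, counter, annotation and strandedness are not given in the sources used here. Gene types and neighbours come from GENCODE M21, on another build, so gene coordinates are not printed, and the 2 promoter windows have the coordinates of the RefSeq table. Depth was estimated from the rounding pattern and lay between 15.1 and 25.0 M reads over the 12 libraries, where 3 reads correspond to 2.40 to 3.98 reads per 20 M. Intervals cover the spread between libraries.

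Values were rescaled by the trimmed mean of M values and transformed as log2(value + 2), which understates changes of low genes. Overlap of groups was judged on the rescaled values. limma 3.58.1 in R 4.3.3 fitted the 4 group means over 12 libraries with an intensity trend, and p-values are two-sided and adjusted by Benjamini-Hochberg over 16563 genes. The procedure was tested on simulated data. Replicates are different mice by the names in the labels, and replicates of a group differed by more than read sampling gives, with a chi-square statistic per gene of 20.5 to 55.2. Low-fat and high-fat libraries share a mouse name, which is where the pairing of fractions comes from, and WT and KO libraries of the same number are different mice. Named genes are Ptprk, the 15 highest and 15 lowest by fold change with a plain symbol, a mean of at least 100 and no overlap of groups, the 5 smallest p on each side, and up to 2 members at each end of each list. Other list members are named after their values were seen. The members and lists were chosen with earlier results of these data known. Alternatives were other scalings, pseudocounts of 0.5 and 10, no filter, the 6 high-fat libraries alone, a replicate block and leaving out libraries. Some list members are not reported here.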

Additional observations from a re-analysis of the deposited data

How the results depend on the processing

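With 3 mice in each genotype, only large differences could pass adjustment over all genes, and estimated depths of 15.1 to 22.99 M reads limit genes under 20 reads per 20 M most. Ptprk stayed lower under all 14 alternatives. Restricting the fit to the 6 high-fat libraries gave 0 called genes, with 83 higher and 151 lower genes at an unadjusted p under 0.05 in limma. Ptprk was then at a log2 fold change of -0.994 with a limma adjusted p of 0.402. The cause of that loss of the call was not tested. Without a filter on low values, 393 higher and 650 lower genes passed an unadjusted p under 0.05, over 30472 genes. A replicate block gave 295 and 357, with Ptprk called. Same-numbered WT and KO libraries are different mice, and their deviations from the group means correlated at 0.490, -0.171 and 0.381, so the numbers do not pair them, and WT replicate 3 correlated more with KO replicate 2 than with KO replicate 3. Leaving out both replicate 1 libraries, a choice made after seeing the data, gave 258 and 346, with Ptprk called. When each library was left out in turn, called genes numbered 0 to 1, higher genes 56 to 534, lower genes 128 to 640, and the log2 fold change of Ptprk ran from -1.083 to -0.9312. Both highest counts came without KO replicate 1 and both lowest without KO replicate 2, and the calls were lost without WT replicate 3 and without KO replicate 2. Without WT replicate 3 the counts were 312 and 369, and without KO replicate 3 they were 81 and 161. The cause of these moves was not tested. Of 63 lists, 15 kept the sign of their median under every alternative, among them Ppara targets, cholesterol synthesis, interferon-stimulated genes, pericentral genes and endothelial markers. No list changed sign under another scaling. Of 251 named genes besides Ptprk, 84 changed sign under some alternative, and 0 were called under any. None of the 84 was among the 33 ranked genes, whose non-overlapping groups cannot change sign when libraries are left out. The count of called genes for the difference between fractions was 0 under each alternative run, a replicate block by mouse included (0 called), with a smallest limma adjusted p of 1.0 there.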
